A study of Mus musculus with 4 samples.

Results

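RNA from MC3T3-E1 cells that had received both medium conditioned by PC-3 cells and mechanical tensile strain was compared, over all genes, with RNA from untreated MC3T3-E1 cells. MC3T3-E1 is a mouse pre-osteoblastic line from skull bone, labelled wild type, and PC-3 is a human prostate cancer line that was derived from a bone metastasis. Of the 41288 genes in the table, 12025 had at least 30 counts in the higher of the 2 libraries, and these are the genes described. All groups were grown in DMEM with fetal bovine serum and antibiotics. Cells of the control group had no treatment. For the group with both treatments, the medium of confluent cells was exchanged for PC-3 conditioned medium, and strain was given at 2500 microstrain and 0.5 Hz for 1 h per day. The series also holds a library with strain alone and a library with conditioned medium alone, which are given beside the comparison as a description. How many days the treatments lasted and how long after the last strain the cells were harvested are not stated in the sources used here. Each group was 1 library of a single cell line, so no difference below has a replicate check, no p-value was computed, and a treatment cannot be told apart from a difference between cultures or library preparations. No library of cells in medium conditioned by other cells was analysed here, so PC-3 medium cannot be told apart from conditioned medium in general.

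Values are read counts and RPKM (reads scaled to gene length and library total). Folds are ratios of a gene's share of all counts between the libraries, each followed in brackets by a 95% interval from an exact (Clopper-Pearson) calculation on its counts. That interval covers counting error only. A gene was called by a size rule: a difference of log2(RPKM + 1) of at least 1 in either direction, and 30 counts or more in the higher library. On this scale the change of a gene with low values is understated. It is called the log2 difference below, always as both treatments minus control, and list medians and counts of genes above or below 0 are of this quantity. The table names its columns by letters, and the labels do not spell out which letter of the single treatments is strain. The reading used here takes L as loading. Under the opposite reading the values given for strain alone and for conditioned medium alone would change places, while those of the control and of both treatments would not.

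The libraries held 10007546 to 10997085 counts, and 3 counts in a gene of 1 kb came to 0.273 to 0.300 RPKM. Of 11 osteoblast-lineage markers, 9 had at least 30 counts, with Col1a1 (a chain of type I collagen, the main protein of bone) at 484 RPKM in the control library and 484 with both treatments. Alpl, the alkaline phosphatase of mineralizing osteoblasts, stood at only 0.803 and 0.882 RPKM. Bglap, which encodes osteocalcin, and Ibsp, which encodes bone sialoprotein, were at or under 12 counts in every library. None of the 6 adipocyte, 6 endothelial or 6 epithelial markers reached 30 counts, nor did 5 of 6 markers of macrophages and blood cells, the exception being Lyz2 (lysozyme) at 30.7 and 24.2 RPKM. Of 6 chondrocyte markers Sox9 and Col2a1 reached it, and of 6 skeletal muscle markers Acta1 and Des. The ribosomal-RNA-like gene Rn18s-rs5 took 1.52% of all counts in the control library, 2.8% with strain, 2.12% with conditioned medium and 3.36% with both, and protein-coding genes took 95.3% in the control library and 92.6% with both. These shares moved with the compared groups, and their part in the results was not tested.

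Several gene programs recur below. Inflammatory cytokines of the interleukin-6 family act through receptors that share the chain gp130, encoded by Il6st, and activate STAT3, which together with C/EBP and NF-kappaB factors drives acute-phase genes. Immediate early genes such as Fos and Egr1 are transcribed within minutes of a stimulus through serum response and cyclic AMP response elements, and their transcripts decay quickly. Interferon-stimulated genes are switched on by factors, STAT2 and IRF9 among them, that act at a shared response element. In bone, collagenase 3 (Mmp13) takes part in matrix turnover, and osteopontin (Spp1) and periostin (Postn) are abundant matrix proteins of osteoblasts.

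Promoters of 6 genes are shown first because they stand for the groups that follow: Fos, Fosb and Nr4a1 for the immediate early genes, Ifit1 and Isg15 for the interferon-stimulated genes, and Mmp13 for the genes that were higher. Each runs 5′ to 3′ on the gene's strand, from 250 bases before to 50 bases after the start in RefSeq (GRCm38.p6). Capitals mark TGACG, the half-site of the cyclic AMP response element, on either strand in the first 3 sequences. They mark GAAA, any 2 bases and GAAA, the core of the interferon-stimulated response element, on either strand in the next 2, and TGACTCA, an AP-1 site, in the last. The half-site was chosen for display after the sequences had been seen.
Fos, chr12:85473640-85473939, plus strand: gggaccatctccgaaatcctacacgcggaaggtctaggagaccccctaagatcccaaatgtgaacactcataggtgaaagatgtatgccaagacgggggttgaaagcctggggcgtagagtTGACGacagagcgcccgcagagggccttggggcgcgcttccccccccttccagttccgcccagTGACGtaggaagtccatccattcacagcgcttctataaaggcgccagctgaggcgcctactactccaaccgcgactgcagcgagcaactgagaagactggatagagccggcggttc
Fosb, chr7:19309996-19310295, minus strand: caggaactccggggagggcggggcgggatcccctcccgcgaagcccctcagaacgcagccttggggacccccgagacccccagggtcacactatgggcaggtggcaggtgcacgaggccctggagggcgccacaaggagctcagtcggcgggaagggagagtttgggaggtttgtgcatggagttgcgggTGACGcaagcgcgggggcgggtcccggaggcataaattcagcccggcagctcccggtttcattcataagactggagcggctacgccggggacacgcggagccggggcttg
Nr4a1, chr15:101266596-101266895, plus strand: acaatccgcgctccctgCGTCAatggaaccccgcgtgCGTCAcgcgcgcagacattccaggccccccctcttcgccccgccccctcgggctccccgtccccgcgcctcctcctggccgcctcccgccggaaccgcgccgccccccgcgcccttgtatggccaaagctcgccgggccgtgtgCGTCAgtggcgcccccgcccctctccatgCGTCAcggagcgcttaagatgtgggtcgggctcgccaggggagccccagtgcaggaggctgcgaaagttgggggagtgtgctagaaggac
Ifit1, chr19:34640639-34640938, plus strand: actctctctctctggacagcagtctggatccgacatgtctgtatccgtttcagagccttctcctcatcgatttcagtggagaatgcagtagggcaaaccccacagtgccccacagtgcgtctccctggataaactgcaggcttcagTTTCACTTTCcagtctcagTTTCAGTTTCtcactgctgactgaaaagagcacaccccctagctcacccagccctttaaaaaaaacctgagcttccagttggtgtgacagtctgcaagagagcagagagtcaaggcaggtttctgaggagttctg
Isg15, chr4:156200769-156201068, minus strand: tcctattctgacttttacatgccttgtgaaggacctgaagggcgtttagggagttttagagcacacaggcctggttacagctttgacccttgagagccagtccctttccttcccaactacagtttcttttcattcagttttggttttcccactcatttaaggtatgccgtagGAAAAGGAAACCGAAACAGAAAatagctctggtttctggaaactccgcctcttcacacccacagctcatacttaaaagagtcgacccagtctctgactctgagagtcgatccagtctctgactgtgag
Mmp13, chr9:7272264-7272563, plus strand: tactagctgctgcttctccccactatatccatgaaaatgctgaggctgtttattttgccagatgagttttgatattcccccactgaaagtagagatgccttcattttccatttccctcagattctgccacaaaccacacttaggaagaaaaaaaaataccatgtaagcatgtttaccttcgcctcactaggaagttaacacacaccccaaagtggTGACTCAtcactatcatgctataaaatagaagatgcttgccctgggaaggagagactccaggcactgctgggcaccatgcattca

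In these windows the Fos half-sites began 129 and 66 bases before the start, that of Fosb 60 bases before it, and those of Nr4a1 233, 213, 69 and 40 bases before it. The Nr4a1 window belongs to a start 12633 bases from the gene start given in the table. The interferon elements began 104 and 85 bases before the start of Ifit1, and 78, 72 and 66 bases before that of Isg15, where they overlap each other. The Mmp13 site began 35 bases before the start, and that window also holds 1 match of the interferon element, which is not marked. Windows were found for 25754 genes of the table, among them 9502 of the genes with at least 30 counts, 52 of the genes called higher and 23 of those called lower. TGACG, which the full element TGACGTCA holds on both strands, was present in 32.8% of the 9502 expressed windows and in 7 of the 10 windows of immediate early and ERK feedback genes called lower, against 29 of 64 windows (45.3%) of those lists as a whole. It was present in 9 of 23 windows (39.1%) of all lower genes and in 6 of 52 (11.5%) of the higher genes. TGACGTCA was present in 3.30% of the expressed windows and in 2 of the 10 lower immediate early and ERK feedback windows. The CArG box, the core of the serum response element, was present in 1.35% and in 1. Elements farther than 250 bases before the start would be missed, and Egr1 and Egr3 are not among the 10. GAAA, any 2 bases and GAAA together were present in 2.98% of the expressed windows and in 24 of 52 windows (46.2%) of the interferon list. TGACTCA was present in 3.40% of the expressed windows, in 7 of 52 windows (13.5%) of the higher genes and in 0 of 23 of the lower genes. These are matches of letters in a window and not measured binding sites.

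Of the 12025 genes, 110 (0.915%) were past the size rule. Among them 76 (0.632%) were higher with both treatments and 34 (0.283%) were lower. A ratio of count shares of at least 2 gave 139 higher and 134 lower genes, a pseudocount of 0.1 RPKM gave 122 and 108, and no count minimum but at least 1 RPKM gave 176 and 179, so the excess of higher genes depends on how low values are treated. The median difference over all 12025 genes was -0.06, with 4346 genes above 0 and 7679 below 0. With TMM factors 5633 were above 0 and 6392 below 0. This split, and the like counts within the gene lists, therefore depend on the scaling. Of the gene lists, those with the most higher genes were acute-phase proteins with 7 and cytokine receptors with 6, and the one with the most lower genes was interferon-stimulated genes with 6. Protein-coding genes made up 67 of the higher and 31 of the lower genes. The median fold was 3.19 among the higher genes and the median inverse fold was 2.71 among the lower genes, and the counting interval lay wholly beyond a fold of 2 for 61 and 24 of them. Scaling with TMM factors moved the median of all genes by 0.05, and changed the sign of some list medians that lay within 0.05 of 0, among them those of the osteoblast lineage, ERK feedback and ribosomal protein genes. Cells in bulk were measured, so fewer cells of a kind and less RNA per cell cannot be told apart.

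**Figure D1:**
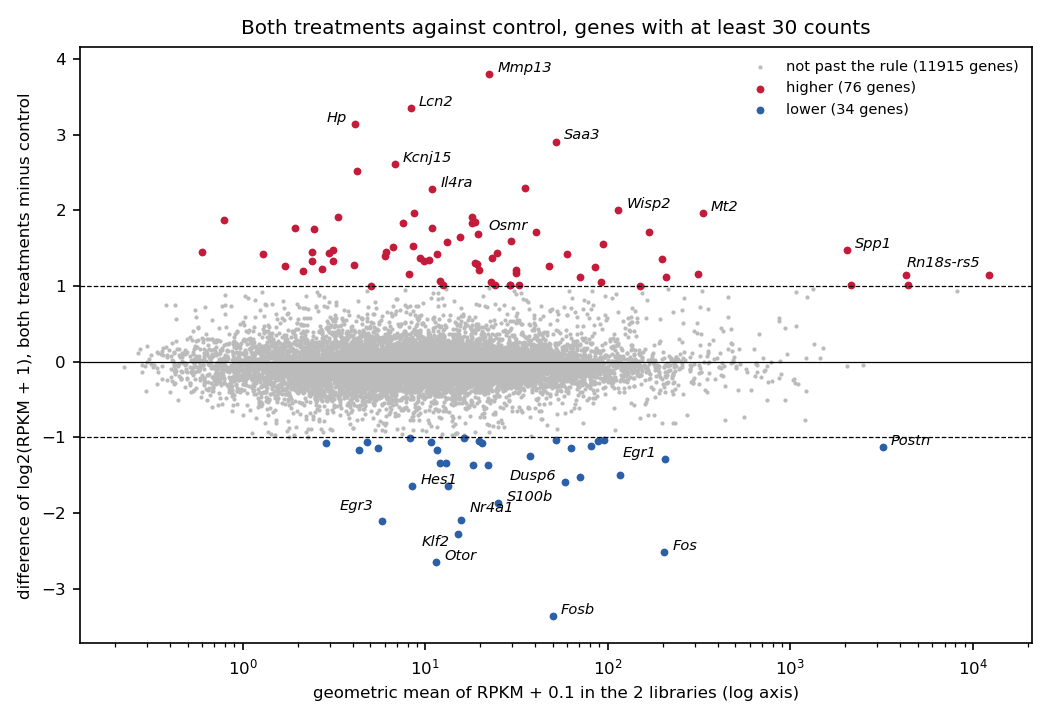
Difference of log2(RPKM + 1) between the library with both treatments and the control library (vertical axis) against the geometric mean of RPKM + 0.1 in these 2 libraries (horizontal log axis) for 12025 genes. Dashed lines mark a difference of 1 in either direction, red points the 76 higher genes and blue points the 34 lower genes, with Mmp13 the farthest up and Fosb the farthest down.

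The acute-phase list held the largest share of higher genes. Of its 10 measured members 7 were past the rule upward and none downward, and the list's median was 1.23 against -0.06 over all genes. The 7 include the transcription factor gene Cebpd and the metal importer gene Slc39a14. The lists were chosen with earlier results of these data known, so this share is a description and no test. Lcn2, which encodes lipocalin 2, a secreted protein that binds bacterial iron carriers, had 2.13 RPKM in the control library, 1.86 with strain, 28.0 with conditioned medium and 30.9 with both. The 2 libraries with conditioned medium were high and the 2 without it were low, with both treatments 14.5-fold higher (95% counting interval 9.20 to 24.1) against control. Hp, which encodes the haemoglobin-binding protein haptoglobin, had 0.947 RPKM in the control library, 1.04 with strain, 13 with conditioned medium and 16.1 with both. Its pattern was the same, and it was 17.0-fold higher (9.93 to 31.7). Saa3 (serum amyloid A3, a member of a family of close copies whose reads may be shared) went from 18.5 RPKM in the control library and 19.7 with strain to 134 with conditioned medium and 145 with both, and was 7.87-fold higher (6.42 to 9.71).

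Further acute-phase and complement genes had smaller folds. Ptx3, a soluble pattern-recognition pentraxin, had 54.7 RPKM in the control library, 48.5 with strain, 132 with conditioned medium and 131 with both and was 2.40-fold higher (2.23 to 2.57). The control value lay between the strain library below it and the other 2 above it. Lbp, the lipopolysaccharide-binding protein, was 2.07-fold higher (1.87 to 2.30), and Cebpd, a C/EBP transcription factor of the acute-phase response, was 3.88-fold higher (3.36 to 4.51). The complement component C4b was 3.38-fold higher (3.07 to 3.74) at 8.41 RPKM in the control library and 28.5 with both, and it was the only one of 10 measured complement genes past the rule, in a list with a median of 0.48. C3, the central complement protein, had a difference of 0.57 and C1ra of 0.72. In the acute-phase list Cp, the ferroxidase ceruloplasmin, was short of the rule at a log2 difference of 0.09. Ptx3 and Cebpd overlap an expressed gene on the opposite strand, and whether reads were counted by strand is not given in the sources used here.

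Another set of higher genes, of small secreted proteins, lectins and receptor-like proteins, had at most 57 counts in the control library. Wfdc5, which encodes a small WAP-domain protein, had 2 counts in the control library, 7 with strain, 44 with conditioned medium and 46 with both, a ratio of 25.3 (6.61 to 215). Its neighbour Wfdc12, at a gap of 6489 bases, was 3.05-fold higher (1.75 to 5.56). Both overlap an expressed gene on the opposite strand. Fcrlb, an Fc receptor-like gene, had 3, 9, 65 and 84 counts in the same order, a ratio of 30.8 (10.2 to 152). With so few control counts the size of both ratios is known only within these wide intervals. The collectin gene Colec10 was 3.49-fold higher (2.58 to 4.79), the membrane mucin gene Muc1 4.22-fold higher (2.52 to 7.41) and the sialic-acid-binding lectin gene Siglecg 3.87-fold higher (2.75 to 5.54).

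Some cytokine receptor genes were higher, Il4ra the most. Of 30 measured cytokine receptor genes 6 were past the rule upward, against 0.632% of all genes, and none downward. The median of the list was 0.12, with 16 members above 0 and 14 below 0. Il4ra, the chain shared by the receptors for interleukins 4 and 13, had 4.50 RPKM in the control library, 6.50 with strain, 26.0 with conditioned medium and 25.8 with both. It was 5.74-fold higher (5.02 to 6.58), and its partner chain Il13ra1 was 3.42-fold higher (3.07 to 3.83), at 10.5 RPKM in the control library and 36.0 with both. Osmr, the oncostatin M receptor chain, had 21.9 RPKM in the control library, 25.3 with strain, 85.4 with conditioned medium and 74.1 with both. Here conditioned medium alone had the highest value, and both treatments were 3.38-fold higher (3.18 to 3.59) against control. The gp130 gene Il6st, which pairs with Osmr, was 2.21-fold higher (2.11 to 2.31), at 47.1 and 104 RPKM.

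Other receptors of the family were short of the rule. The differences were 0.54 for Lifr, 0.31 for Il6ra and -0.31 for Il11ra1. Il1rl1, the receptor for interleukin 33, differed in its pattern over the libraries: it had 5.47 RPKM in the control library, 14.5 with strain, 14.3 with conditioned medium and 15.7 with both. All 3 treated libraries lay close together above the control, and the fold was 2.86 (2.57 to 3.20) upward. Tnfrsf9, a costimulatory receptor of the tumour necrosis factor receptor family, was 2.69-fold higher (2.38 to 3.05). The interferon receptor genes Ifnar1, Ifnar2, Ifngr1 and Ifngr2 lay between log2 differences of -0.14 and -0.02.

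Among ligands, Il6 was the one past the rule of 19 measured cytokine and chemokine genes, whose median was 0.07. It had 3.98 RPKM in the control library, 4.82 with strain, 18.7 with conditioned medium and 18.5 with both and was 4.64-fold higher (3.39 to 6.45). The 2 libraries with conditioned medium stood at nearly the same level, above the other 2. The neutrophil-attracting chemokine Cxcl5 was at a log2 difference of 0.71, Il33 at 0.62 and Ccl2 at -0.22. Among signalling genes, Bcl3, an IkappaB-family protein that is a nuclear cofactor of NF-kappaB, was 2.78-fold higher (2.24 to 3.47). Socs3, the feedback inhibitor of gp130 signalling, was at a log2 difference of 0.62, Stat3 at 0.42 and Cebpb at 0.94. Of 28 genes of the JAK-STAT3 list 2 were past the rule, Bcl3 and Cebpd. Of 25 genes of the NF-kappaB list, which does not hold Bcl3, only Sod2 was. The list medians were 0.07 and 0.15.

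Of 15 measured genes of nitric oxide, prostaglandin and kinin signalling, Nos2, Bdkrb2 and Bdkrb1 were past the rule upward and none downward. Among all genes 0.632% were past it upward. The list had 9 members above 0, 6 below 0 and a median of 0.22. Nos2, the inducible nitric oxide synthase, had 1.31 RPKM in the control library, 1.33 with strain, 7.80 with conditioned medium and 7.73 with both. Control and strain values nearly coincided, as did those of the 2 libraries with conditioned medium, and the fold was 5.88 (4.50 to 7.79) upward. Bdkrb2 and Bdkrb1, the genes of the constitutive and the inducible bradykinin receptor, lie 8847 bases apart. Bdkrb2 had 1.51 RPKM in the control library, 3.36 with strain, 5.62 with conditioned medium and 5.94 with both and was 3.94-fold higher (3.03 to 5.18). Bdkrb1 was 3.25-fold higher (2.34 to 4.59). In contrast to these, Ptgs2, the inducible cyclooxygenase, had 39.5 RPKM in the control library, 40.6 with strain, 48.8 with conditioned medium and 30.2 with both. Its lowest value was that with both treatments and its highest that with conditioned medium alone, with a difference of -0.38 against control.

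**Figure D2:**
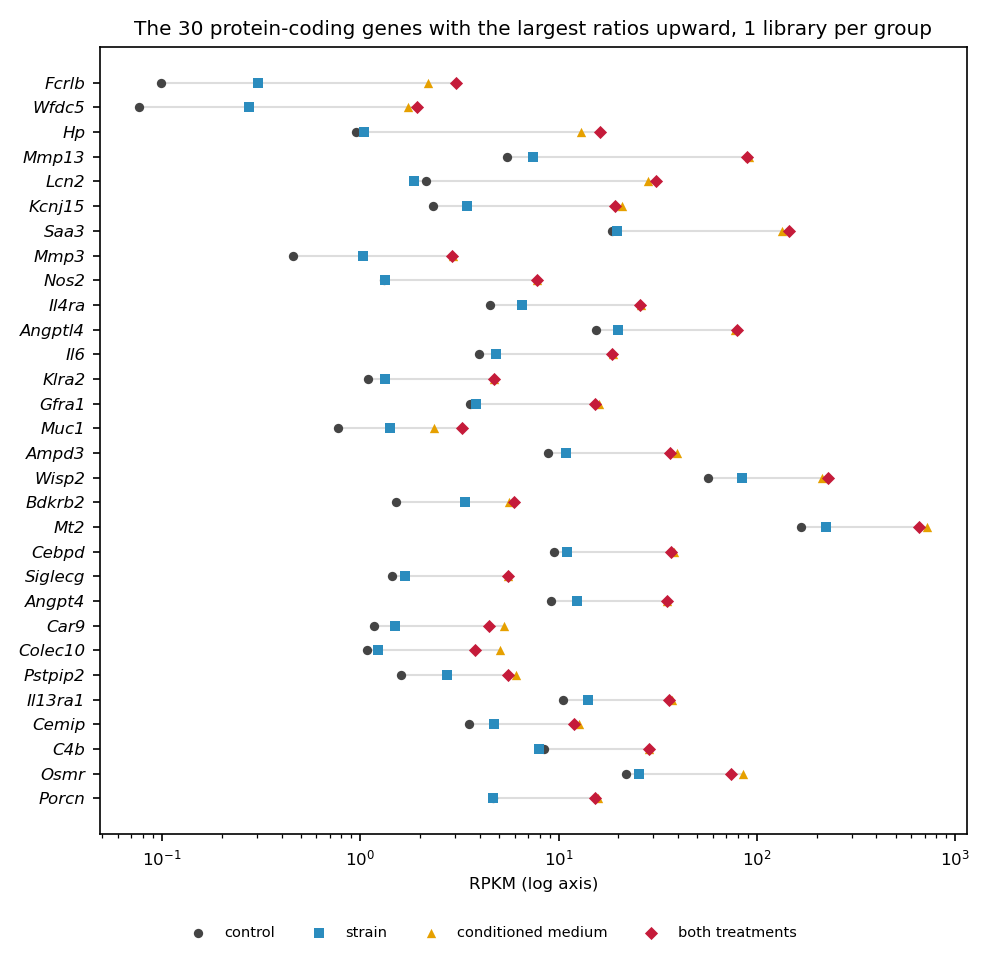
RPKM (horizontal log axis) in the control (circle), strain (square), conditioned-medium (triangle) and both-treatment (diamond) libraries for the 30 protein-coding genes with the largest folds upward, 1 library per group. For Mmp13 the values run from 5.47 RPKM in the control library to 89.2 with both treatments, next to 91.3 with conditioned medium; markers that coincide hide each other.

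Matrix proteases and matrix proteins differed gene by gene. Mmp13, the collagenase of bone and cartilage, had the largest log2 difference of all 12025 genes, 3.80. It had 5.47 RPKM in the control library, 7.43 with strain, 91.3 with conditioned medium and 89.2 with both. The control and strain libraries were low and the other 2 were high and close to each other, and both treatments were 16.3-fold higher (13.9 to 19.2) on 161 and 2388 counts. Mmp3 (stromelysin 1), which lies 162489 bases from it, had only 9 control counts and was 6.35-fold higher (3.10 to 14.7). Timp1, an inhibitor of these proteases, was 2.98-fold higher (2.70 to 3.30), at 54.5 and 162 RPKM, and overlaps an expressed gene on the opposite strand. Of the other 12 measured genes of the list none was past the rule, with Mmp14 at a log2 difference of -0.16, Mmp2 at 0.43 and Timp3 at -0.70, and the list median was 0.03. Cemip, which takes part in hyaluronan breakdown, was 3.39-fold higher (3.05 to 3.78).

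Of 30 matricellular genes 2 were higher and 2 lower, against 0.632% and 0.283% of all genes. Spp1 had 1223 RPKM in the control library, 2338 with strain, 3455 with conditioned medium and 3412 with both. Every treated library was above the control, and both treatments were 2.79-fold higher (2.75 to 2.83). Spp1 took 0.203% of all counts in the control library and 0.566% with both. Postn moved the other way with 4735 RPKM in the control library, 3711 with strain, 2095 with conditioned medium and 2169.8 with both. It was 2.18-fold lower (2.16 to 2.20), and its share of all counts was 1.61% in the control library and 0.738% with both, the largest loss of RPKM of any gene. Ecm1, a secreted glycoprotein of the matrix, was 2.25-fold higher (2.17 to 2.32) at 207 and 466 RPKM. The microRNA gene Mir7014, which lies inside Ecm1 on the same strand, was also past the rule.

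Otor, which encodes otoraplin, a small secreted protein known from cartilage and the inner ear, had 31.2 RPKM in the control library, 21.1 with strain, 3.58 with conditioned medium and 4.14 with both. It was high in the libraries without conditioned medium and low in those with it, and was 7.54-fold lower (5.38 to 10.9). None of 27 measured collagen chains was past the rule, against 0.915% of all genes, and their median was 0.03. The type I chains were level, at a log2 difference of 0.00 for Col1a1 and 0.05 for Col1a2, while Col12a1 (0.90) and Col3a1 (0.69) were the highest of the list and Col24a1 (-0.84) the lowest. The collagen-processing list had no gene past the rule either, 15 of 23 members above 0 and a median of 0.12, with the prolyl hydroxylase gene P4ha2 at a log2 difference of 0.70. Among cell-matrix adhesion genes, the integrin gene Itga8 was 2.19-fold lower (1.94 to 2.49) and the focal adhesion gene Tns1 (tensin 1) 2.57-fold lower (2.30 to 2.89). The other 31 measured genes of that list were short of the rule, and 0.283% of all genes were past it downward.

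Osteoblast-lineage genes were mostly near the level of all genes. Of 23 measured members Spp1 alone was past the rule, 10 were above 0 and 13 below 0, and the median was -0.04. Among all genes 0.915% were past the rule, 7679 of 12025 were below 0 and the median was -0.06. The transcription factors of the lineage were below 0: Runx2 was at a log2 difference of -0.38, 1.32-fold lower (1.22 to 1.43), and Sp7 (osterix) at -0.63, 1.85-fold lower (1.34 to 2.57). Dmp1, known from osteocytes, where its protein takes part in mineralization, had 10.6 RPKM in the control library, 41.2 with strain, 5.30 with conditioned medium and 5.29 with both. The strain library was far above the rest, the control was next, and the library with both treatments was 2.0-fold lower (1.66 to 2.41) than the control, with a log2 difference of -0.88 that is short of the rule. Pdpn (podoplanin, an early osteocyte marker) was just outside the rule at 0.997, and Mgp, an inhibitor of mineralization, was at a log2 difference of 0.58. Alx1, a homeobox gene of skull development, was 2.18-fold lower (2.05 to 2.32), at 119.7 and 54.9 RPKM. Sox9, the chondrocyte factor, was at a log2 difference of -0.77.

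Metal-binding and antioxidant genes were higher in a few members. Of 39 measured genes 5 were past the rule upward, against 0.632% of all genes, and none downward. The median was 0.15. Mt2, a metallothionein that binds zinc and copper, had 167 RPKM in the control library, 222 with strain, 723 with conditioned medium and 655 with both. It was 3.91-fold higher (3.65 to 4.2), and Mt1, its neighbour at a gap of 5517 bases, was 2.01-fold higher (1.85 to 2.19), at the edge of the rule. Fth1, the heavy chain of the iron store ferritin, had 3095 RPKM in the control library, 3171 with strain, 7065 with conditioned medium and 6248 with both. The 2 libraries with conditioned medium had about 2 times the level of the other 2, with a fold of 2.02 (2.0 to 2.04) for both treatments. Ftl1, the ferritin light chain, was level at a log2 difference of 0.01. Slc39a14, an importer of zinc and iron, was 2.43-fold higher (2.26 to 2.60), and Sod2, the mitochondrial superoxide dismutase, 2.73-fold higher (2.58 to 2.90). The heme oxygenase gene Hmox1 was short of the rule at a log2 difference of 0.96, and the NRF2 target Nqo1 was at -0.06.

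Genes of glycolysis and the hypoxia response were higher broadly and by small amounts. Values above 0 were found for 33 of the 37 measured genes, against 4346 of all 12025. Of the list 4 were past the rule upward, against 0.632% of all genes, and its median was 0.41. Pfkfb3, which makes the activator of phosphofructokinase, had 6.72 RPKM in the control library, 7.16 with strain, 18.5 with conditioned medium and 19.7 with both. It was 2.92-fold higher (2.62 to 3.26), and its neighbour at a gap of 127324 bases, the long non-coding RNA gene Gm13293, was also higher. Car9, the carbonic anhydrase known as a hypoxia marker, was 3.81-fold higher (2.48 to 6.02), the mitophagy gene Bnip3 2.38-fold higher (2.10 to 2.69) and the oxidoreductase gene Ero1l 2.07-fold higher (1.91 to 2.24). Short of the rule stood the glucose transporter Slc2a1 (log2 difference 0.71), hexokinase 2 (Hk2, 0.83), Pdk1 (0.73) and Vegfa (0.83), and the lowest member was Selenbp1 (-0.98). Car9 overlaps the expressed genes Arhgef39 and Tpm2 on the opposite strand and lies 13967 bases from Rmrp.

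Secreted growth and vessel factors followed. Of 39 measured genes 4 were past the rule upward, against 0.632% of all genes, and none downward, with a median of 0.14. Angptl4, a secreted inhibitor of lipoprotein lipase, had 15.4 RPKM in the control library, 19.9 with strain, 77.3 with conditioned medium and 79.6 with both and was 5.17-fold higher (4.58 to 5.85). Strain alone lay a little above the control, and the 2 libraries with conditioned medium stood together above both. Angpt4, a ligand of the TIE2 receptor, was 3.82-fold higher (3.19 to 4.61), while Angpt1, the best-known ligand of that receptor, was just outside the rule in the other direction at a log2 difference of -0.99. Apln, the ligand of the apelin receptor, was 3.25-fold higher (2.35 to 4.58). Gfra1, the receptor for the growth factor GDNF, was 4.27-fold higher (3.68 to 4.97), at 3.58 and 15.3 RPKM, and Gdnf itself was at a log2 difference of 0.49. Sema3g, a secreted semaphorin, was 2.79-fold higher (2.45 to 3.20), and Tnnc1, which encodes a troponin C and lies 6162 bases from it, was 2.14-fold higher (1.71 to 2.69).

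Several higher genes belonged to none of these groups. Kcnj15, an inwardly rectifying potassium channel gene, had 2.31 RPKM in the control library, 3.46 with strain, 20.7 with conditioned medium and 19.1 with both. The libraries with conditioned medium were high, that with strain was slightly above the control, and both treatments were 8.29-fold higher (7.02 to 9.84). Wisp2 (CCN5, a matricellular protein of the CCN family) had 56.4 RPKM in the control library, 84.1 with strain, 213 with conditioned medium and 229 with both and was 4.05-fold higher (3.81 to 4.32), while its relatives Cyr61 and Nov were at a log2 difference of -0.73 and -0.39. Ampd3, an AMP deaminase, was 4.09-fold higher (3.70 to 4.53), and Sphk1, which makes sphingosine 1-phosphate, 3.14-fold higher (2.89 to 3.40). In the Wnt pathway Porcn, which attaches a lipid to Wnt proteins, was 3.30-fold higher (2.74 to 4.01) and Rspo2, a secreted enhancer of Wnt signalling, 2.06-fold higher (1.91 to 2.22), while the Wnt target Axin2 was at a log2 difference of -0.69. Rspo2 was the only one of 24 genes of the fixed Wnt list past the rule, against 0.915% of all genes. The list's median was -0.10 against -0.06 over all genes.

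Among regulators that were higher, Fosl1, a FOS-family member of AP-1, had 30.6 RPKM in the control library, 45.5 with strain, 91.7 with conditioned medium and 74.5 with both and was 2.44-fold higher (2.21 to 2.69). Phlda1 was 2.58-fold higher (2.47 to 2.70) at 123 and 318 RPKM, the transcription factor gene Snai1 2.32-fold higher (2.04 to 2.63), the STAT3-responsive gene Sbno2 2.83-fold higher (2.63 to 3.04) and the circadian-related gene Noct 2.31-fold higher (1.83 to 2.91). Metabolic enzymes in this set were the CTP synthase gene Ctps, 2.57-fold higher (2.30 to 2.89), and the glucosylceramide synthase gene Ugcg, 2.09-fold higher (1.91 to 2.28). The secreted chaperone gene Clu was 3.26-fold higher (2.73 to 3.90). Genes of families with close copies were Ly6c1 and Ly6a, 45987 bases apart, and Klra2 and Klra4 of the mouse Ly49 receptor family, with folds of 2.10 to 4.32, and reads may be shared among such copies. Low counts lay under the long non-coding RNA gene C430002N11Rik, with 18 counts in the control library and 96 with both, and under Rmrp, the RNA of RNase MRP, with 4 and 34. The remaining higher genes were the long non-coding RNA gene Gm33916, 3.30-fold higher (3.06 to 3.56), the elongin pseudogene Gm15698, 3.86-fold higher (2.79 to 5.41), Pstpip2, 3.46-fold higher (2.41 to 5.07), the kinase gene Nek6, 2.61-fold higher (2.33 to 2.92), the diphthamide synthesis gene Dph5, 2.46-fold higher (1.92 to 3.18), and Smim3, 2.24-fold higher (1.89 to 2.65).

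Immediate early genes and their feedback regulators formed the largest group among the lower genes, and most had their highest value in the control library and their lowest with both treatments. Fosb, a FOS-family member of AP-1, had 164 RPKM in the control library, 47.8 with strain, 63.7 with conditioned medium and 15.0 with both. The control was highest, each single treatment was lower, and both treatments together were lowest, 10.9-fold lower (10.1 to 11.9) on 7149 and 595 counts. Fos had 490.2 RPKM in the control library, 235 with strain, 259.6 with conditioned medium and 84.9 with both, in the same order, and was 5.77-fold lower (5.49 to 6.07). The nuclear receptor gene Nr4a1 had 34.1 RPKM in the control library, 15.2 with strain, 13.9 with conditioned medium and 7.2 with both. The single treatments lay close together between the other 2 libraries, and both treatments were 4.74-fold lower (4.24 to 5.32) than control. Klf2, a Kruppel-like factor known for its response to fluid flow in endothelium, had 35 RPKM in the control library, 12.2 with strain, 20 with conditioned medium and 6.44 with both and was 5.43-fold lower (4.46 to 6.66).

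The EGR factors had the same order of control highest and both treatments lowest. Egr3 had 13.4 RPKM in the control library, 7.49 with strain, 3.85 with conditioned medium and 2.36 with both and was 5.68-fold lower (4.58 to 7.11). Egr1 had 320.4 RPKM in the control library, 236 with strain, 207 with conditioned medium and 131 with both and was 2.45-fold lower (2.36 to 2.54). Egr2 was 2.19-fold lower (2.05 to 2.34) and Klf4 2.07-fold lower (1.97 to 2.19). Of 8 measured EGR and NR4A genes 4 were past the rule downward, 7 were below 0 and the median was -0.73, and of 10 Kruppel-like factors 2 were past it, with a median of -0.29. Several other immediate early genes were short of the rule. Jun was at a log2 difference of -0.41, Junb at -0.74, Ier2 at -0.90, Myc at 0.03, Atf3 at 0.29 and Gadd45a at 0.94. Of 12 AP-1 genes 2 were lower, 1 (Fosl1) was higher and the median was 0.05. Of 29 other immediate early genes Zfp36 and Btg2 were lower and Phlda1 was higher, with a median of -0.07.

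A few genes that limit these responses, the phosphatase genes Dusp6 and Dusp1 among them, were lower as well. Dusp6, the ERK-specific phosphatase, had 102 RPKM in the control library, 82.8 with strain, 62.4 with conditioned medium and 33.0 with both and was 3.08-fold lower (2.86 to 3.32). Dusp1, a phosphatase of p38 and JNK, had 197 RPKM in the control library, 103 with strain, 154 with conditioned medium and 69.1 with both and was 2.86-fold lower (2.69 to 3.04); here strain alone was below conditioned medium alone. Zfp36 (tristetraprolin, which promotes decay of AU-rich transcripts) had 121 RPKM in the control library, 69.8 with strain, 76.1 with conditioned medium and 41.3 with both and was 2.92-fold lower (2.68 to 3.17). The antiproliferative gene Btg2 was 2.43-fold lower (2.23 to 2.64). Of 19 ERK feedback genes only the 2 phosphatases were past the rule and the median was -0.03, with Dusp5 at a log2 difference of -0.65, Spry2 at -0.35 and Etv4 at 0.46. Dusp6 and the long non-coding RNA gene Gm34921 overlap on opposite strands and were both lower, so their reads may not be separate. Hes1, a transcriptional repressor of the Notch pathway that oscillates, had 15.9 RPKM in the control library, 11.4 with strain, 7.38 with conditioned medium and 4.39 with both. It was 3.62-fold lower (2.8 to 4.71). Of 17 genes in the Notch list Hes1 alone was past the rule, against 0.915% of all genes. The list's median was -0.04 against -0.06 over all genes.

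**Figure D3:**
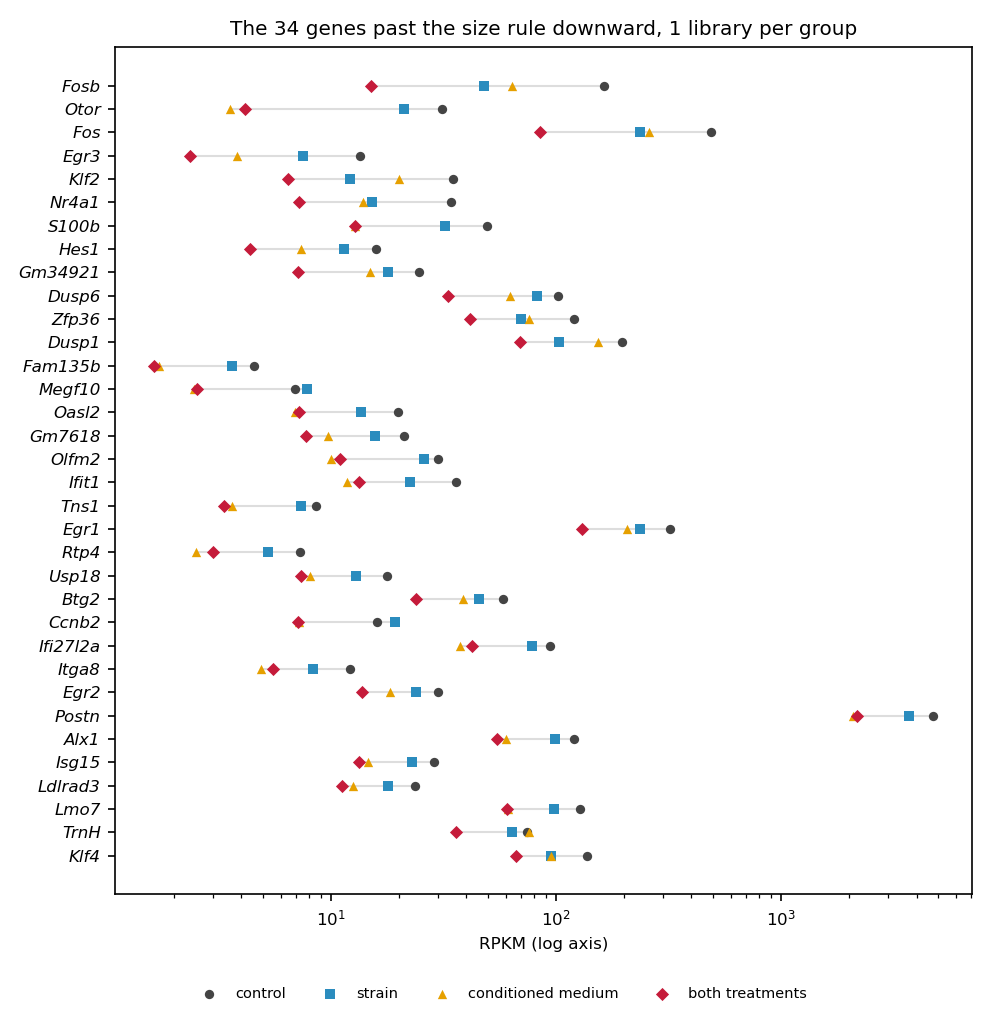
RPKM (horizontal log axis) in the control (circle), strain (square), conditioned-medium (triangle) and both-treatment (diamond) libraries for the 34 genes past the size rule downward, 1 library per group. Fos runs from 490 RPKM in the control library to 84.9 with both treatments, with the single treatments between them, whereas for Otor and Postn the conditioned-medium and both-treatment libraries lie next to each other.

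The library with both treatments held the lowest of the 4 values for 25 of the 34 lower genes and the highest for 29 of the 76 higher genes. Since the rule chose these genes on that library's value, the counts describe the genes and are no test. The 9 lower genes whose lowest value was in the conditioned-medium library were Postn, Otor, Itga8, Olfm2, Megf10, Ifit1, Oasl2, Rtp4 and Ifi27l2a. None of the called immediate early genes was among these 9.

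Most interferon-stimulated genes were lower, a few of them past the rule. Of 66 measured members 6 were past the rule downward, against 0.283% of all genes, and none upward. Below 0 were 52, against 7679 of all 12025, and 14 were above 0. The median was -0.47 against -0.06 over all genes. Ifit1, which binds viral RNA, had 36.1 RPKM in the control library, 22.4 with strain, 11.8 with conditioned medium and 13.4 with both. The control was highest, strain was between, and the 2 libraries with conditioned medium were low, with both treatments 2.70-fold lower (2.39 to 3.05). Isg15, a ubiquitin-like modifier, had 28.6 RPKM in the control library, 22.9 with strain, 14.6 with conditioned medium and 13.3 with both and was 2.14-fold lower (1.69 to 2.73). Usp18, which removes that modifier, was 2.43-fold lower (1.98 to 2.99), Oasl2 of the oligoadenylate synthetase family 2.74-fold lower (2.35 to 3.20), Rtp4 2.44-fold lower (1.83 to 3.29) and Ifi27l2a 2.23-fold lower (1.98 to 2.53). The counting intervals of Isg15, Usp18, Rtp4 and Ifi27l2a reached below a fold of 2. With TMM factors Isg15 was short of the rule. Factor genes of the pathway were short of the rule: Irf9 was at a log2 difference of -0.95, Irf7 at -0.91 and Stat2 at -0.42.

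The members above 0 included Ifitm1 (log2 difference 0.84), Ifitm2 (0.54) and Ifitm3 (0.45), which restrict virus entry, and Rsad2 (0.59). Rsad2 had 30 counts in the control library and 60 with both. Antigen presentation genes were near the level of all genes or below it, with B2m at a log2 difference of -0.50, H2-K1 at -0.34 and Tap1 at 0.08. Over the 4 libraries, each gene's log2(RPKM + 1) minus its own mean had a median over members of 0.31 in the control library, 0.06 with strain, -0.15 with conditioned medium and -0.18 with both. The control library held the highest value for 51 of the 66.

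Mitotic genes were mostly lower, by small amounts. Of 74 measured members 72 were below 0 and the median was -0.48, but only Ccnb2 was past the rule. Ccnb2, which encodes cyclin B2, had 16.1 RPKM in the control library, 19.3 with strain, 7.18 with conditioned medium and 7.13 with both and was 2.25-fold lower (1.80 to 2.83). The strain library was above the control, and the libraries with conditioned medium were below it. Plk1, the polo-like kinase of mitotic entry, was at a log2 difference of -0.86, 1.91-fold lower (1.6 to 2.30). Ube2c, a ubiquitin-conjugating enzyme of mitotic exit, was at a log2 difference of -0.81 and the proliferation marker Mki67 at -0.61. Centred on each gene's mean, the list's median was 0.17 in the control library, 0.51 with strain, -0.38 with conditioned medium and -0.30 with both. All 74 members had their highest value in the strain library, and the lowest was in the conditioned-medium library for 56 of them and in the library with both for 18. Of 67 DNA replication genes 53 were below 0, none was past the rule and the median was -0.17. Among all 12025 genes 7679 were below 0, 0.915% were past the rule and the median was -0.06. With TMM factors the DNA replication median was -0.12 and that of all genes -0.01.

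**Figure D4:**
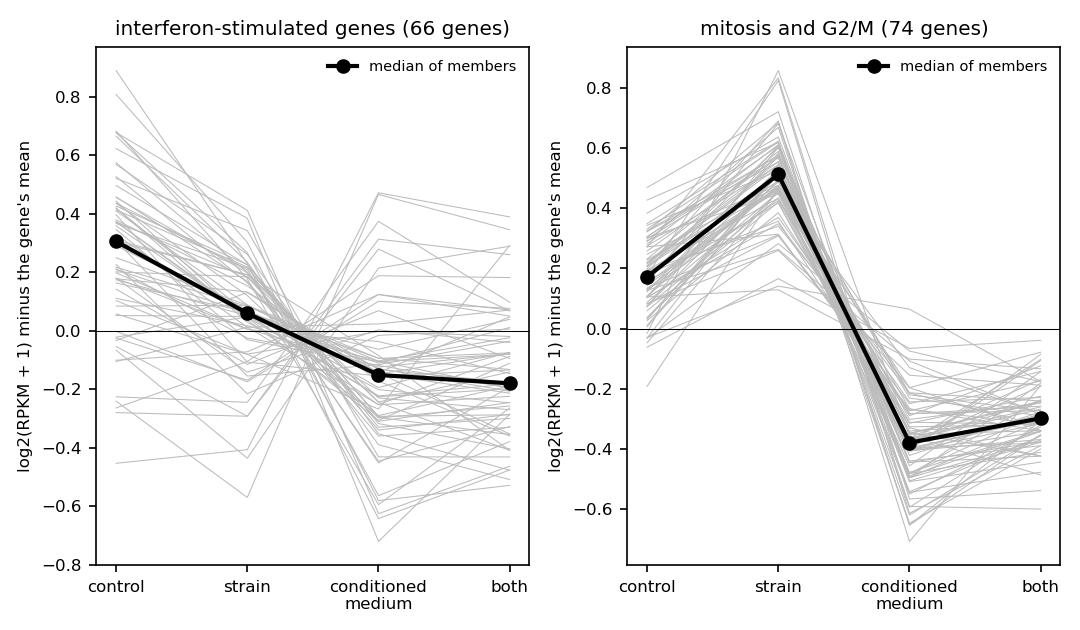
log2(RPKM + 1) minus the gene's own mean over the 4 libraries (vertical axis) for the 66 interferon-stimulated genes (left) and the 74 mitosis genes (right), with 1 grey line per gene and the median of members in black. The interferon median is highest in the control library at 0.31 and the mitosis median highest in the strain library at 0.51.

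Sterol synthesis and contractile genes were lower without passing the rule. Of 30 measured sterol genes 25 were below 0, with a median of -0.34. Insig1, a sterol-regulated inhibitor of the SREBP pathway, had 22.3 RPKM in the control library, 23.4 with strain, 12.1 with conditioned medium and 12.2 with both, with a difference of -0.82. The 2 libraries without conditioned medium were close to each other, as were the 2 with it. Of 38 actin and contractile genes 30 were below 0, with a median of -0.20 against -0.06 over all genes. Cald1 (caldesmon) had 573 RPKM in the control library, 486 with strain, 339.6 with conditioned medium and 337 with both and a difference of -0.77, and Acta2, smooth muscle actin, was at -0.50. In the BMP list none of 24 genes was past the rule, against 0.915% of all genes. Its lowest member was the target gene Id1, with 10.7 RPKM in the control library, 12.6 with strain, 11.2 with conditioned medium and 5.02 with both and a difference of -0.95, where the other 3 libraries were alike.

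**Figure D5:**
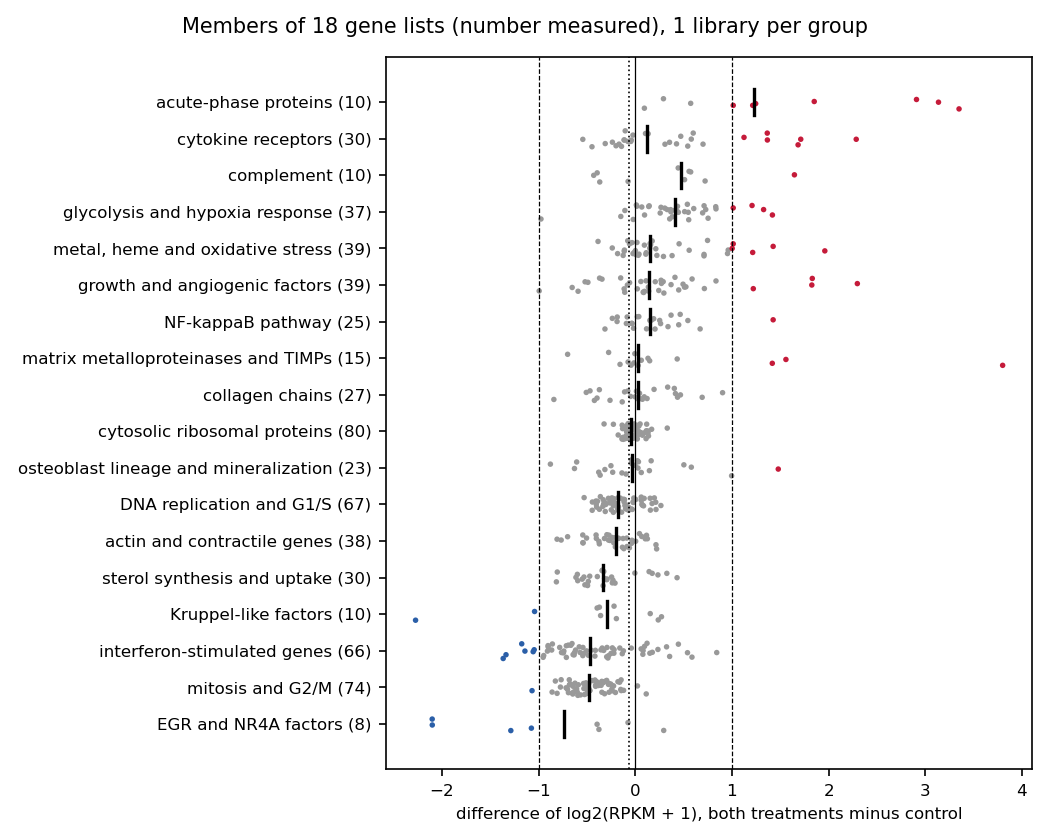
Difference of log2(RPKM + 1), both treatments minus control, for the members of 18 of the gene lists, with the number of measured members in brackets and 1 point per gene (vertical scatter within a row has no meaning). Black bars are list medians, the dotted line is the median of all 12025 genes at -0.06, dashed lines mark 1 in either direction, and red and blue points are genes past the rule; acute-phase proteins have the highest median shown at 1.23 and EGR and NR4A factors the lowest at -0.73.

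Other lower genes fell outside the groups above. S100b, a calcium-binding protein gene best known from glia, had 49.2 RPKM in the control library, 32.3 with strain, 12.8 with conditioned medium and 12.8 with both and was 3.86-fold lower (3.32 to 4.50). Its values were alike in the 2 libraries with conditioned medium, and the strain library lay between them and the control. Olfm2, which encodes a secreted olfactomedin, was 2.73-fold lower (2.37 to 3.15) and Megf10, a phagocytic receptor, 2.74-fold lower (2.32 to 3.24). Lmo7, at 127 RPKM in the control library and 60.8 with both, was 2.09-fold lower (2.02 to 2.17), Fam135b 2.79-fold lower (2.44 to 3.19) and Ldlrad3 2.11-fold lower (1.88 to 2.36). The mitochondrial histidine tRNA gene TrnH and the ribosomal protein pseudogene Gm7618 had 24 and 24 counts with both treatments.

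Several of the genes that gained most RPKM resemble ribosomal RNA. Rn18s-rs5, a copy of 18S ribosomal RNA, had 8214 RPKM in the control library, 15132 with strain, 11439 with conditioned medium and 18159 with both. LOC101056014, which overlaps it, had a fold of 2.21 (2.19 to 2.24) upward. The libraries with strain were above those without it for both, and the same order held for Gm41051 and, short of the rule, for LOC108167755, Mir6236, Mir6240 and Lars2. The depletion of ribosomal RNA or selection of poly(A) RNA is not given in the sources used here. Cytosolic ribosomal protein genes were level, with 80 measured members between log2 differences of -0.32 (Rpl39) and 0.33 (Rpl31) and a median of -0.05. Level too were 72 subunits of the respiratory chain, with a median of -0.05 and none past the rule. For all genes the median was -0.06 and 0.915% were past the rule.

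At the edge of the rule, Noct and Mt1 were just inside it upward at 1.00 each, and Pdpn (0.997) and Casp12 (0.97) just outside. Itga8 and Ldlrad3 were just inside it downward at -1.01 each, and Sobp (-0.998) and Angpt1 (-0.99) just outside. With TMM factors in place of plain totals, Isg15, Itga8, Klf4, Ldlrad3, Lmo7 and TrnH were short of the rule. Among the called genes, 11 higher and 7 lower ones overlap an expressed gene on the opposite strand, among the latter Isg15, Egr2, Lmo7 and Alx1. Called genes lay within 200 kb of another called gene in 11 pairs, each pair in the same direction. The pairs Dusp6 and Gm34921, Rn18s-rs5 and LOC101056014, and Ecm1 and Mir7014 overlap, so they may share reads. The numbers of overlaps and pairs among all genes are not given here. Whether neighbouring genes moved together was not tested.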

How the data were processed

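RNA sequencing of 4 libraries of MC3T3-E1 cells, 1 per group, was used, with 10007546 to 10997085 counts each. The deposited table gives, per its file headers, a read count and an RPKM value for every gene in every library. Dividing the deposited counts by gene length and library total gave the RPKM values within a relative 5.05e-06. Alignment was with HISAT2 on the build mm9, per the submitters' processing notes. The table's positions are nevertheless those of GRCm38: of 40033 genes found by Entrez number in RefSeq's GRCm38.p6, 28744 (71.8%) start at an identical position there. The counter, its strand setting, its handling of reads that match several genes and the annotation are not stated in the sources used here.

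The library with both treatments was compared with the control by the difference of log2(RPKM + 1), with a pseudocount of 1 RPKM. Genes entered with 30 counts or more in the higher library and were called at a difference of at least 1. Folds are ratios of count shares with 95% exact Clopper-Pearson intervals (scipy 1.17.1). PCR copies of a molecule are counted as separate reads, so intervals cover counting error only. With 1 library per group no test was run. All called genes could be named, then the genes that gained or lost most RPKM, and members of 51 fixed gene lists and marker lists. The members and lists were chosen with earlier results of these data known. Alternatives were TMM factors (edgeR 4.0.16) and DESeq2 1.42.0 size factors, used for scaling only, totals without the 20 most abundant genes, other pseudocounts, count minimums and measures, and protein-coding genes alone. The calculation was tested on simulated data. Promoter windows came from RefSeq (GRCm38.p6), and motifs were searched on both strands.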

Additional observations from a re-analysis of the deposited data

How the results depend on the processing

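Counts of 76 higher and 34 lower genes became 122 and 108 with a pseudocount of 0.1 RPKM, 46 and 22 with 5 RPKM, 176 and 179 with no count minimum but at least 1 RPKM, and 139 and 134 with a ratio of count shares of at least 2 and no pseudocount. Higher genes made up 69.1% of the calls as reported, against 53% with 0.1 RPKM, 49.6% with no count minimum and 50.9% by count shares. These settings add genes at low values by their construction. The counts were 81 and 28 with TMM factors and with DESeq2 size factors, 84 and 31 without the 20 most abundant genes, 89 and 50 at 10 counts, 67 and 32 at 100 counts, 70 and 28 with the whole counting interval beyond a ratio of 2, and 70 and 29 over protein-coding genes alone. All 76 higher genes were past the rule with TMM and with DESeq2 factors. Both scalings raised the differences, by 0.05 at the median of all genes, so only lower genes could drop out. Each of the 110 genes kept its direction in the scaling and pseudocount alternatives. None of these alternatives could have reversed a difference past the rule. Each of the 45 list medians moved by less than the spread of its members, while the medians of ERK feedback, osteoblast lineage, BMP, heat shock, adhesion, respiratory chain and ribosomal protein genes, all within 0.05 of 0, changed sign under TMM. No paired analysis was possible because each group has 1 library. Differences between cultures could not be measured.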

Other observations

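Several further gene lists had few or no members past the size rule. Over all 12025 genes 0.915% were past it, so lists of this length would hold few or none at that share. Of 39 measured genes of the amino acid stress response, which the transcription factor ATF4 drives, 31 were above 0, none was past the size rule and the median log2 difference was 0.12. Trib3 was the highest at 0.55, Asns was at 0.37 and Atf4 itself at 0.03. Of 30 genes of fatty acid synthesis and lipid storage none was past the rule, with Elovl6 the lowest at -0.81 and the fatty acid-binding protein gene Fabp5 the highest at 0.63. None of 19 circadian clock genes was past the rule, from Per2 at -0.58 to Nfil3 at 0.49, and none of 22 heat shock genes was. Of 23 genes of the p53 list only Btg2 was past the rule, and Cdkn1a, the best-known target, was at -0.02.

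The fixed list of long non-coding RNAs had 21 measured members and none past the rule, with a median of 0.09. Snhg5 was the highest at 0.49 and Snhg7 the lowest at -0.47, and Malat1 was at 0.36. Over all 602 long non-coding RNA genes with at least 30 counts, 4 were higher and 1 was lower. The tissue factor gene F3 (0.89) and the membrane protease gene Adam8 (0.88) led the coagulation and ADAM lists without passing the rule, while the aggrecanase-family gene Adamts1 was at -0.71. Adam8 had 76 counts in the control library, 99 with strain, 229 with conditioned medium and 163 with both. Piezo1, a mechanically gated channel gene, was at 0.17, and the connexin 43 gene Gja1 at 0.53.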
